A study of Homo sapiens with 32 samples.

Results

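The genes described here are 44 genes of neuronal and synaptic function and the repressors REST and RCOR1, 46 of the 25559 gene symbols counted in each library. They were taken from the count tables by symbol, and 46 of 46 were found. The series holds 32 RNA sequencing libraries, 8 from each of 4 human T-cell lines: PF382 (T-cell acute lymphoblastic leukemia), TLOm1 (adult T-cell leukemia), HH and H9 (both cutaneous T-cell lymphoma). Each line gave 8 libraries after 96 hours in culture: no drug, the histone deacetylase inhibitor romidepsin, 3 doses of the DNA methyltransferase inhibitor azacitidine, and romidepsin with each of those doses. PF382 and TLOm1 received azacitidine doses of 125, 250 and 500 nM, while HH and H9 received 50, 125 and 250 nM, with a new addition every 24 hours. Romidepsin was added at the start. The dose was 1.25 nM for PF382, and TLOm1 and H9 received 1 nM. HH had 1 nM in the romidepsin-only library and 1.25 nM beside azacitidine, so its matched libraries do not all have equal romidepsin doses. The lines are established cultures, and there was 1 library per condition and line, so the 4 lines are the replicates (n = 4) and no error within a line and condition can be had.

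REST binds a DNA element near many neuronal genes and, through corepressors such as RCOR1 (CoREST), brings histone deacetylases and demethylases to them. In cells outside the nervous system this keeps genes of neurotransmitter release, the neuronal cytoskeleton and excitability silent. Romidepsin inhibits class I histone deacetylases, and azacitidine, after it is built into DNA, traps DNA methyltransferases. The comparisons ask how far these genes were expressed in T-cell lines and how their RNA differed with each drug and with both.

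Levels are given in CPM (counts relative to the library total after TMM scaling, the usual depth-scaled unit), which carry no correction for gene length, so they are compared between libraries for a gene and not between genes. Libraries held 16175077 to 32496676 counts, and 3 counts stood for 0.0982 to 0.196 CPM, so most values under about 0.2 CPM rest on a few reads. In bulk RNA, more cells with a transcript and more RNA per cell cannot be told apart. The 13 T-cell markers checked summed to 1704 to 2844 CPM in each library, but not all lines carried the full set: in TLOm1 CD3D and CD3G were at 0 in some libraries, and LCK was at 0 in at least 1 library of TLOm1 and of HH.

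Of the 46 genes, 33 had a promoter window (250 bases before to 50 bases after a transcript start) in the RefSeq table of build GRCh38.p14. The REST element has a left block, searched as TTCAGCACC, and a right block, searched as GGACAGC, both on either strand and at most 20 bases apart. Windows of 3 members (9.09% of those matched) held both blocks, against 0.0439% of all 27305 symbols in the table. With the right block shortened to GGACAG, a choice made after the windows were seen, 4 members (12.1%) did, against 0.0513%. Many of the 46 genes were listed as genes that REST silences elsewhere. A higher share of blocks among them follows from that choice and supports nothing further. Members also had more windows per gene, 59 for 33 genes against 35116 for 27305 symbols. The elements of these 4 members are shown because they are the letters REST is known to read. The blocks are in capitals, and each element is read along the strand that holds it.
UNC13A: TTCAGCACCgggggcgcGGACAGcgcc
SYN1: TTCAGCACCgcGGACAGtgcc
GRIA2: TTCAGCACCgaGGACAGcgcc
SCG3: TTCAGCACCcacagggcGGACAGcgct
The UNC13A element lies at chr19:17688340-17688366 and runs from 12 bases before to 14 bases after the start. The other elements lie at chrX:47620070-47620090 (SYN1, 233 to 213 bases before the start), chr4:157220388-157220408 (GRIA2, 231 to 211 bases before it) and chr15:51681511-51681537 (SCG3, 8 to 34 bases after it). The blocks are 2 bases apart in SYN1 and GRIA2 and 8 bases apart in UNC13A and SCG3. A match describes these letters and is not a measured binding site. CELSR3 held the left block without a right block in reach, and left blocks alone or paired were in 5 members (15.2%), against 0.469% of all symbols. SNAP25, NRXN2, SCN3B, GRIN1, NEFH, SYT7, ELAVL3, NEFM, CPLX1, CHGB, STMN2, NEFL and SCG2 had no promoter window and were not searched.

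CpG content, the substrate of DNA methyltransferases, differed widely between members. The 250 bases before the start of SNCB, which encodes beta-synuclein, hold 26 CpG (chr5:176630535-176630784, minus strand), and those before a start of MAP2, the first of 3 MAP2 windows in the table, hold 4 (chr2:209661246-209661495, plus strand). Over 300 bases the 3 MAP2 windows hold 5, 7 and 10 CpG, so the one shown has the fewest, and the SNCB window holds 35. Which start these cells use was not measured. Both stretches are shown because these genes had large increases in the combinations while their CpG content differs, with CpG in capitals. Whether CpG content bears on the increases was not tested.
SNCB: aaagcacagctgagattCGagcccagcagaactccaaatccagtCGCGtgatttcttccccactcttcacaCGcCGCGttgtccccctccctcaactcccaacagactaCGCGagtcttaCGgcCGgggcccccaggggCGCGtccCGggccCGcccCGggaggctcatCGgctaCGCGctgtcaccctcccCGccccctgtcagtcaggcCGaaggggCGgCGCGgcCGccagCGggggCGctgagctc
MAP2: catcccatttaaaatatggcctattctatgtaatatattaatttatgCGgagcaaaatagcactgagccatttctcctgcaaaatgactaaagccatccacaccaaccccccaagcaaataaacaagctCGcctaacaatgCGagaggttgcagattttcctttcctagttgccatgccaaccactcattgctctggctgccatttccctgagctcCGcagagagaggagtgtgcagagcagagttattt
The median member had 28 CpG in its richest window of 300 bases, and the median symbol of the table had 16. Members had more windows per gene to take the richest from, so these medians are not like for like. Which of these bases were methylated was not measured here.

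The lines differed in which of these genes they expressed before any drug. At 1 CPM or more, 18 of the 46 genes were detected in untreated PF382, 16 in TLOm1, 13 in HH and 18 in H9. With romidepsin and the highest azacitidine dose these counts were 28, 28, 22 and 22, but that dose was 500 nM in PF382 and TLOm1 and 250 nM in HH and H9. With romidepsin and 250 nM, given to each line, they were 25, 23, 22 and 22. L1CAM, an adhesion molecule of growing axons, stood at 1009 CPM in untreated H9 and under 0.5 CPM in the untreated libraries of the other lines. SYT1, a calcium sensor of vesicle release, was at 112 CPM in untreated TLOm1 and 166 CPM in HH, and at 0.86 and 0.039 CPM in PF382 and H9. INA, a neuronal intermediate filament, was at 54.1 CPM in PF382 and 46.1 CPM in H9, and near 0 in TLOm1 and HH. These genes were singled out after their values were seen, and with 1 library each the differences have no replicate within a line.

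**Figure D1:**
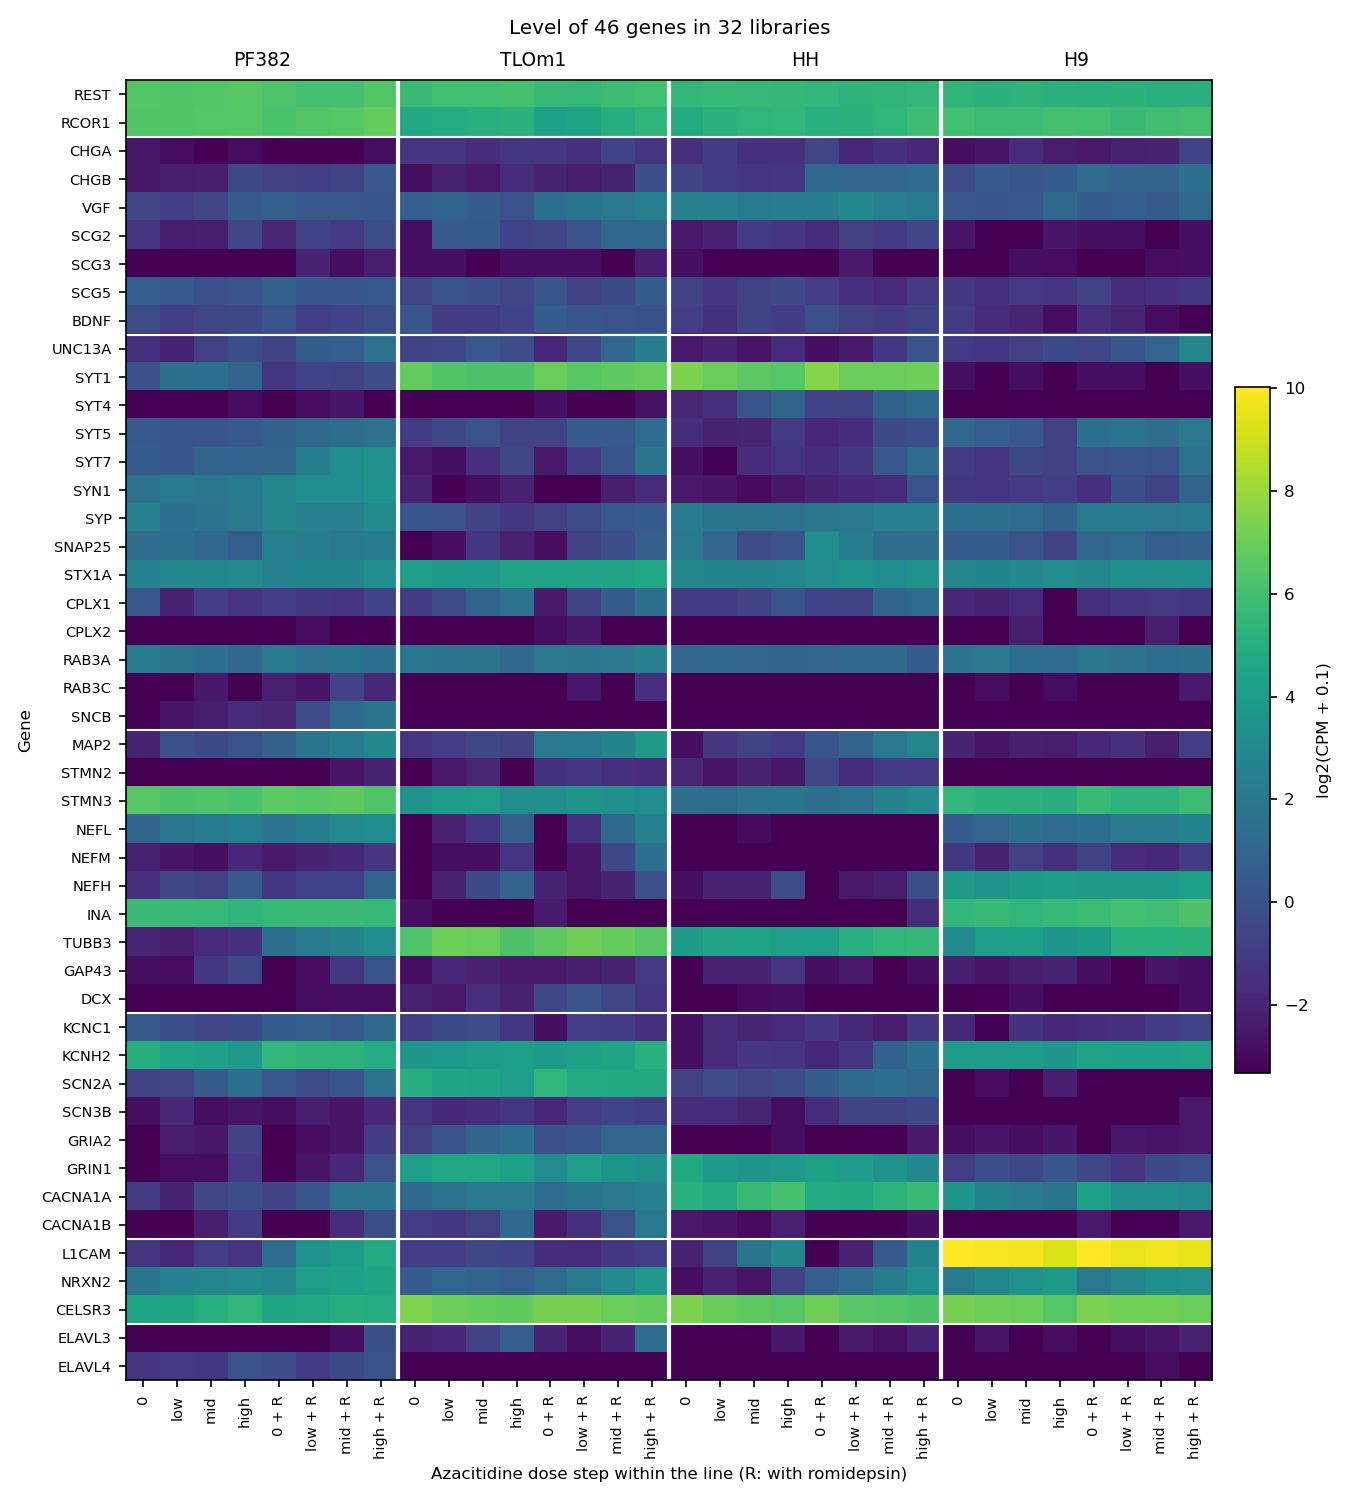
Colour gives log2(CPM + 0.1) of the 46 genes (rows, white lines between role groups) in the 32 libraries (columns, ordered by line, then romidepsin, then azacitidine step; + R marks romidepsin). The lines differ before treatment, as in L1CAM in H9 at 1009 CPM, and many dark rows lighten toward the right of a line, where romidepsin and the highest azacitidine dose meet.

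Values by library below run from no azacitidine to the highest dose, and a line in which a gene stayed under about 1 CPM is given by its range. Changes are log2 fold changes ± standard error from edgeR's quasi-likelihood test, and adjusted p is its Benjamini-Hochberg value over 17801 genes. The filter on low counts kept 42 of the 46. A gene that passed only through the libraries where it is high had to differ, so counts among the 42 describe them and support nothing further. SCG3, CPLX2, RAB3C and STMN2 did not pass, with 22, 10, 37 and 79 counts over the 32 libraries.

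REST and RCOR1 were detected in 32 of 32 libraries, and their changes were small. REST, the repressor itself, was at 87.9, 84.7, 87.2 and 92.2 CPM without romidepsin and 80.4, 66.3, 68.3 and 85.7 CPM with it in PF382. In TLOm1 REST stood at 53.7, 61.8, 61.6 and 70.6 CPM without romidepsin and 52.4, 48.4, 58 and 63.8 CPM with it. HH had REST at 45.2, 49.9, 48.4 and 47.7 CPM without romidepsin and 45.6, 40.6, 41.9 and 44.9 CPM with it, and H9 at 41.7, 37.9, 40.7 and 36.2 CPM without romidepsin and 35.2, 38.1, 33.6 and 32.9 CPM with it. In 14 of the 16 pairs of libraries matched on line and azacitidine dose, the library with romidepsin had the lower REST level. The change over the 16 pairs was -0.18 ± 0.04 (adjusted p = 0.00104), so REST fell slightly, and the estimate in each line lay between -0.23 ± 0.07 in PF382 and -0.15 ± 0.07 in HH. Only the PF382 estimate passed on its own (adjusted p = 0.0117; 0.148 without the middle azacitidine step and 0.0694 without the lowest). A test that the 4 effects are equal gave an adjusted p of 0.841. At 250 nM azacitidine REST was 0.01 ± 0.07 (adjusted p = 0.945).

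RCOR1, the scaffold that joins REST to its enzymes, followed the azacitidine dose instead. In PF382 RCOR1 was at 82.5, 83, 90.3 and 93.6 CPM without romidepsin and 76.2, 87.3, 93.4 and 117 CPM with it. TLOm1 had RCOR1 at 24.8, 29.8, 33.9 and 37.6 CPM without romidepsin and 19.7, 22.1, 31.1 and 42.3 CPM with it. In HH it stood at 28.1, 37.9, 43.3 and 45 CPM without romidepsin and 35.5, 38.2, 44.3 and 59.4 CPM with it, and in H9 at 62.3, 56.6, 57.3 and 68.2 CPM without romidepsin and 61.8, 54.9, 60.4 and 67.8 CPM with it. In 4 of 4 lines the highest dose had the highest RCOR1 level of its arm, with and without romidepsin. RCOR1 rose by 0.19 ± 0.03 (adjusted p = 0.000126) per doubling of the dose, and by 0.41 ± 0.12 (adjusted p = 0.0184) in the combination at 250 nM against untreated cells, a call lost without HH (0.20, adjusted p = 0.31). Over the 16 pairs romidepsin gave 0.03 ± 0.05 (adjusted p = 0.712).

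**Figure D2:**
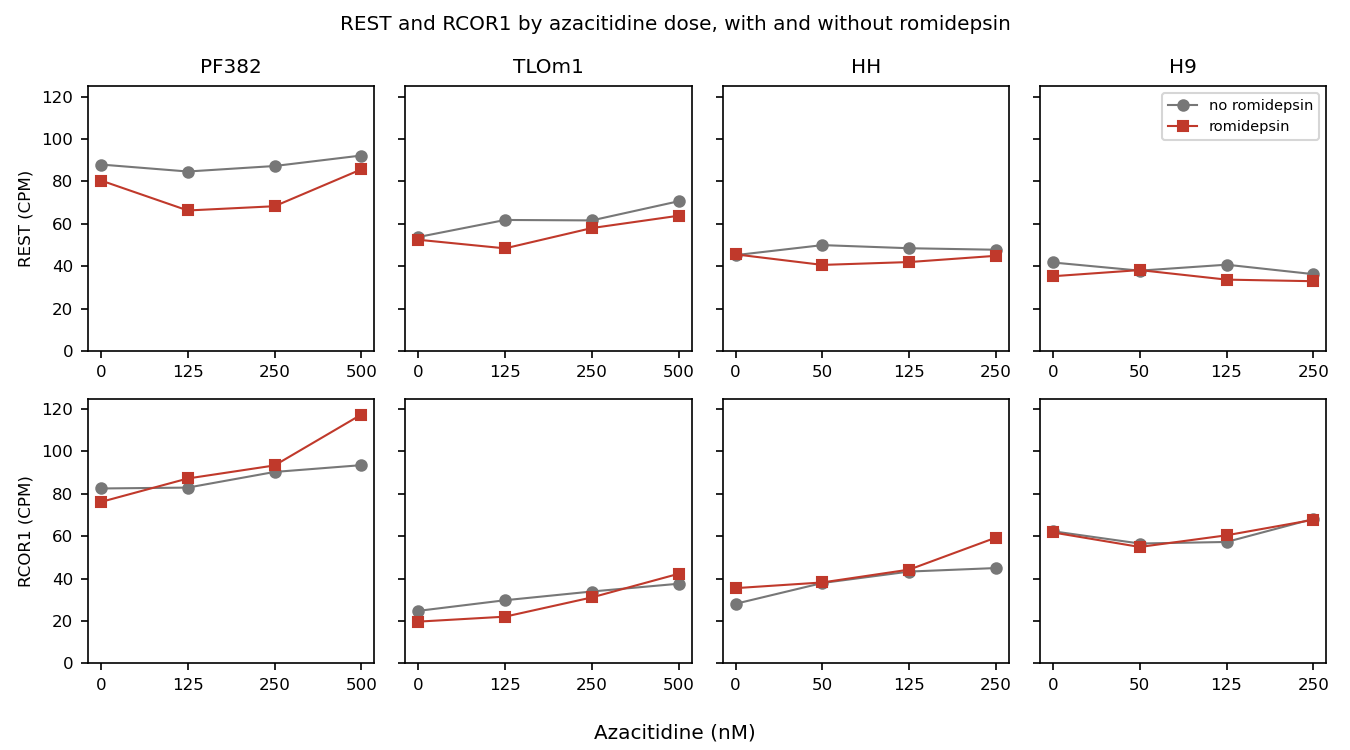
REST (top) and RCOR1 (bottom) in CPM (axis from 0) by azacitidine dose in nM, with the doses at equal spacing, in each line, without romidepsin (grey circles) and with it (red squares); each point is 1 library. REST points with romidepsin lie below the matched grey points in 14 of 16 pairs, and RCOR1 has its highest point of each arm at the highest dose in 4 of 4 lines.

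Across the 44 neuronal genes and the repressors together, romidepsin raised 19 of the 42 tested and lowered 2 over the 16 matched pairs. The pairs of a line at its azacitidine doses enter this fit as independent, although the line is the replicate. Of all 17801 genes, 18.4% were called higher and 15.1% lower. The median change of the 42 was 0.60, and that of all genes tested was 0.01. Romidepsin alone against untreated cells (1 pair a line) called none of the 42, where the share called among all genes was 0.0169%, and 2 of the 42 had an unadjusted p under 0.05 (5.61% of all genes). Azacitidine at 250 nM called none either, against 3.85% of all genes higher and 2.14% lower, and 8 of the 42 had an unadjusted p under 0.05 (21.5% of all genes, so their share was near that background). DESeq2 and limma-voom called 1 each in both comparisons. The combination at 250 nM called 15 higher and 0 lower, against 14.2% and 8.76%, with medians of 1.11 for the 42 (also with SNCB set to its bound) and 0.04 for all genes. Set against azacitidine at 250 nM, the combination called 8 higher and 0 lower, against 3.43% and 2.24%.

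Those combination counts depend on the lines and on the libraries in the fit. Without HH the combination called 6 of the members against untreated, a share near the 14.5% of all genes called in either direction in that fit. Each of the 6 was higher, where 8.93% of all genes were. Without H9 the combination called 8 (16.2% of all genes in either direction), without TLOm1 12 (17.3%) and without PF382 14 of 41 (14.6%), of which CELSR3 was lower. None was called with the 8 compared libraries alone (0.354% of all genes). MAP2, SYT7, UNC13A, CHGB and NRXN2 were called without each of the 4 lines in turn. No member departed from the sum of the single-drug changes at 250 nM, in edgeR, DESeq2 or limma-voom, where 0% of all genes were called and 5 of the 42 had an unadjusted p under 0.05 (3.35% of all genes). These comparisons share untreated or azacitidine libraries, so their counts are not independent of each other.

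Among the 7 secretory granule genes, which encode granins and peptides packed into dense-core vesicles, romidepsin raised 3 of the 6 tested over the 16 pairs, where 18.4% of all genes rose. CHGB, a granin of the granule core, was higher with romidepsin in 15 of 16 pairs. In HH CHGB was at 0.57, 0.39, 0.29 and 0.34 CPM without romidepsin and 2.12, 1.93, 1.94 and 2.46 CPM with it, and in H9 at 0.73, 1.31, 1.07 and 1.3 CPM without romidepsin and 2.47, 1.74, 1.72 and 2.83 CPM with it. The arms did not overlap in either line. PF382 had CHGB at 0.082, 0.11, 0.12 and 0.68 CPM without romidepsin and 0.47, 0.46, 0.50 and 1.12 CPM with it, where the highest azacitidine dose alone overlapped the romidepsin arm. In TLOm1 it ranged over 0.043 to 0.82 CPM. The change over the pairs was 1.54 ± 0.21 (adjusted p = 4.1e-05), and in HH alone it was 2.42 ± 0.30 (adjusted p = 5.27e-06), in H9 0.97 ± 0.25 (adjusted p = 0.025). The H9 call was lost without any 1 of the 4 azacitidine steps (adjusted p = 0.0559 to 0.167). The 4 line effects differed (adjusted p = 0.0448), a call lost without the lowest, middle or highest azacitidine step (adjusted p = 0.193, 0.338 and 0.0581).

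VGF, a neurotrophin-induced secreted peptide precursor, rose with romidepsin in TLOm1 and PF382. TLOm1 had VGF at 1.49, 1.9, 1.35 and 0.93 CPM without romidepsin and 2.72, 3.54, 3.82 and 5.22 CPM with it, with no overlap. PF382 had it at 0.61, 0.43, 0.59 and 1.28 CPM without romidepsin and 1.55, 1.18, 1.2 and 1.08 CPM with it. HH had VGF at 5.54, 5.43, 4.45 and 4.76 CPM without romidepsin and 4.92, 7.25, 5.21 and 4.41 CPM with it, and H9 at 1.12, 1.03, 1.11 and 2.14 CPM without romidepsin and 1.37, 1.46, 1.29 and 2.17 CPM with it. Romidepsin gave 1.41 ± 0.24 (adjusted p = 0.000187) in TLOm1, 0.79 ± 0.29 (adjusted p = 0.046) in PF382 and 0.61 ± 0.17 (adjusted p = 0.0115) over the pairs. The PF382 call was lost without the libraries that had no azacitidine, the lowest step or the middle one (adjusted p = 0.193, 0.212 and 0.213). The change over the pairs was 0.34 without TLOm1 (adjusted p = 0.103), and its call was also lost without the lowest or middle step (adjusted p = 0.0717 and 0.0623). SCG2, secretogranin II, was at 0.043, 1.23, 1.26 and 0.53 CPM without romidepsin and 0.62, 0.97, 2.13 and 2.15 CPM with it in TLOm1, and at 0.11 to 0.79 CPM in PF382, 0.087 to 0.60 CPM in HH and 0 to 0.077 CPM in H9. Its romidepsin change of 0.87 ± 0.29 (adjusted p = 0.0272) over the pairs was lost in 6 of 8 fits that left out a line or step: without PF382, TLOm1 or HH (adjusted p = 0.0581, 0.116 and 0.0799) and without the lowest, middle or highest step (0.0701, 0.0805 and 0.12). CHGA, SCG5 and BDNF, a neurotrophin, did not pass over the pairs. BDNF was higher with romidepsin in TLOm1 (0.88 ± 0.29 (adjusted p = 0.0218)) and lower with azacitidine in H9 (-1.74 ± 0.52 (adjusted p = 0.0453)). The TLOm1 call was lost without the lowest, middle or highest step (adjusted p = 0.146, 0.11 and 0.0509), and the H9 call without the middle or highest one (0.304 and 0.134).

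Of the 12 tested genes of synaptic vesicle release, 8 were higher with romidepsin over the pairs and none lower, where 18.4% and 15.1% of all genes were. In the combination at 250 nM 7 were higher, where 14.2% of all genes were. SYT7, a synaptotagmin of slow calcium-triggered release, was higher with romidepsin in 16 of 16 pairs. PF382 had SYT7 at 1.31, 1.08, 1.76 and 1.71 CPM without romidepsin and 1.89, 4.92, 8.91 and 10.5 CPM with it, and TLOm1 at 0.085, 0.044, 0.26 and 0.62 CPM without romidepsin and 0.095, 0.40, 1.09 and 3.38 CPM with it. In HH it was at 0.044, 0, 0.23 and 0.29 CPM without romidepsin and 0.24, 0.35, 1.14 and 2.6 CPM with it, and in H9 at 0.39, 0.31, 0.63 and 0.47 CPM without romidepsin and 0.88, 1.06, 0.93 and 3.05 CPM with it. The combination at the highest dose had the highest value in each of the 4 lines. Against untreated cells the combination at 250 nM gave 3.31 ± 0.47 (adjusted p = 5.39e-05), and the change over the pairs was 2.02 ± 0.21 (adjusted p = 5.47e-06). In HH the highest dose with romidepsin was 59.6 times the untreated level (95% counting interval 10.3 to 2400.0), from 1 count in the untreated library.

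UNC13A, a priming factor of vesicles and one of the genes with a REST element shown above, was raised where both drugs met. In H9 UNC13A was at 0.39, 0.34, 0.47 and 0.69 CPM without romidepsin and 0.62, 1.1, 1.93 and 6.6 CPM with it, and in TLOm1 at 0.55, 0.62, 1.13 and 0.80 CPM without romidepsin and 0.19, 0.60, 2.03 and 4.71 CPM with it. PF382 had 0.24, 0.14, 0.47 and 0.82 CPM without romidepsin and 0.52, 1.41, 1.5 and 3.02 CPM with it. In TLOm1 romidepsin alone had less UNC13A than the untreated library, and the order turned at 250 nM. HH stayed at 0.048 to 0.98 CPM, with its highest value in the combination at 250 nM. The combination at 250 nM gave 3.02 ± 0.46 (adjusted p = 0.000109) against untreated and 2.03 ± 0.43 (adjusted p = 0.00859) against azacitidine, the latter lost without HH or H9 (adjusted p = 0.0861 and 0.123). Over the pairs romidepsin gave 1.57 ± 0.29 (adjusted p = 0.000556), higher in 12 of 16.

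SNAP25, a core protein of the vesicle fusion complex, was higher with romidepsin in 16 of 16 pairs, while azacitidine moved it in opposite directions. In HH SNAP25 was at 3.97, 1.96, 0.75 and 0.88 CPM without romidepsin and 9.01, 4.79, 2.58 and 2.6 CPM with it, so it fell with azacitidine in both arms. TLOm1 had it at 0, 0.044, 0.35 and 0.13 CPM without romidepsin and 0.048, 0.52, 0.79 and 1.54 CPM with it, from 0 counts untreated, and the combination at 500 nM was at least 12-fold higher than the floor of 3 counts in the untreated library. PF382 had 2.57, 2.71, 2.2 and 1.5 CPM without romidepsin and 5.37, 4.84, 4.05 and 4.32 CPM with it, and H9 1.31, 1.31, 0.91 and 0.51 CPM without romidepsin and 2.03, 2.43, 1.5 and 1.59 CPM with it. Romidepsin gave 1.28 ± 0.16 (adjusted p = 1.8e-05) over the pairs. Azacitidine gave 4.30 ± 0.99 (adjusted p = 0.00494) in TLOm1 and -1.60 ± 0.37 (adjusted p = 0.00956) in HH, the latter lost without the middle step (adjusted p = 0.18), and the 4 azacitidine effects differed (adjusted p = 0.00487; 0.109 without that step).

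SYT5 and SYN1 rose with romidepsin over the pairs. SYT5, a synaptotagmin of secretory vesicles, was at 1.18, 1.01, 1.06 and 1.21 CPM without romidepsin and 1.68, 2.17, 2.66 and 3.06 CPM with it in PF382 and at 2.12, 1.48, 1.11 and 0.47 CPM without romidepsin and 2.87, 3.25, 2.58 and 3.76 CPM with it in H9. In TLOm1 SYT5 was at 0.38, 0.66, 0.87 and 0.49 CPM without romidepsin and 0.52, 1.37, 1.29 and 2.56 CPM with it, and HH stayed at 0.13 to 0.84 CPM. PF382 and H9 had no overlap between the arms, and SYT5 was higher in 15 of 16 pairs, by 1.18 ± 0.18 (adjusted p = 0.000129). Its combination call (1.28 ± 0.39 (adjusted p = 0.0207)) was lost without PF382, TLOm1 or HH (adjusted p = 0.102, 0.0778 and 0.0912). SYN1, synapsin I, which tethers vesicles and whose promoter window carries the element shown above, was at 3.1, 4.08, 3.65 and 4.31 CPM without romidepsin and 6.87, 8.73, 8.95 and 11.6 CPM with it in PF382. In H9 SYN1 was at 0.35, 0.31, 0.36 and 0.43 CPM without romidepsin and 0.26, 0.81, 0.57 and 1.81 CPM with it, while HH and TLOm1 stayed at 0.033 to 0.93 CPM and 0 to 0.20 CPM. SYN1 rose by 1.23 ± 0.22 (adjusted p = 0.000443) over the pairs. By line it was called in PF382 and HH, the latter not without the middle or highest step (adjusted p = 0.0565 and 0.205), and its combination call (2.12 ± 0.51 (adjusted p = 0.00525)) was lost without HH or H9 (adjusted p = 0.058 and 0.0719).

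SYT1 showed a difference between lines that the pooled estimate did not. TLOm1 had SYT1 at 112, 84.3, 77.1 and 78.1 CPM without romidepsin and 128, 92.8, 109 and 118 CPM with it, and HH at 166, 124, 102 and 88.7 CPM without romidepsin and 189, 131, 124 and 135 CPM with it. In PF382 it was at 0.86, 2.89, 2.82 and 1.78 CPM without romidepsin and 0.34, 0.53, 0.50 and 0.79 CPM with it, and in H9 it never passed 0.044 CPM. Romidepsin thus lowered SYT1 in PF382 (-1.92 ± 0.25 (adjusted p = 9.81e-06)) and raised it in TLOm1 (0.36 ± 0.10 (adjusted p = 0.00842)) and HH (0.29 ± 0.10 (adjusted p = 0.031)), and the 4 effects differed (adjusted p = 2.75e-05). The TLOm1 and HH calls were lost without the middle step (adjusted p = 0.0992 and 0.137), and the HH call also without the highest (0.0695). Azacitidine raised it in PF382 (1.34 ± 0.29 (adjusted p = 0.00465)) and lowered it in HH (-0.60 ± 0.13 (adjusted p = 0.00579)), both lost without the middle step (adjusted p = 0.0518 and 0.132).

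Of the remaining release genes, SNCB was detected in PF382 alone, with 0 counts in the 24 libraries of the other lines. PF382 had SNCB at 0, 0.072, 0.12 and 0.21 CPM without romidepsin and 0.17, 0.72, 2.16 and 3.46 CPM with it, and the combination at 500 nM was at least 28.2-fold higher than 3 counts in the untreated library. STX1A, the syntaxin of the fusion complex, ranged over 5.63 to 8.82 CPM in PF382, 14.2 to 25 CPM in TLOm1, 6.35 to 11.3 CPM in HH and 6.45 to 9.83 CPM in H9, and rose by 0.32 ± 0.08 (adjusted p = 0.0038) over the pairs. SYP, synaptophysin of the vesicle membrane, rose by 0.59 ± 0.15 (adjusted p = 0.00464), a call lost without the highest step (adjusted p = 0.0518) or the middle one (0.0528). SYT4 was confined to HH at 0.17 to 2.23 CPM, with at most 0.077 CPM elsewhere, and its combination call (3.59 ± 0.92 (adjusted p = 0.0116)) was lost without HH (adjusted p = 0.42). CPLX1, a complexin, rose by 0.65 ± 0.15 (adjusted p = 0.00297) per azacitidine doubling, which was lost without TLOm1 (adjusted p = 0.0905), and RAB3A, a vesicle GTPase, was not called in any of these comparisons.

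Among the 10 cytoskeleton and outgrowth genes, 4 of the 9 tested rose with romidepsin over the pairs and none fell, where 18.4% and 15.1% of all genes did. MAP2, which stabilises dendritic microtubules, had the smallest adjusted p of the 42 in the combination. In PF382 MAP2 was at 0.12, 0.87, 0.67 and 0.93 CPM without romidepsin and 1.59, 3.47, 4.71 and 7.38 CPM with it, and in TLOm1 at 0.30, 0.44, 0.65 and 0.49 CPM without romidepsin and 3.91, 4.19, 6.05 and 14.2 CPM with it. HH had 0.044, 0.33, 0.49 and 0.38 CPM without romidepsin and 1.01, 1.71, 3.77 and 6.5 CPM with it. In these 3 lines each library with romidepsin was above each library without it. In H9 the arms overlapped, at 0.15, 0.069, 0.12 and 0.11 CPM without romidepsin and 0.18, 0.24, 0.11 and 0.44 CPM with it. The combination at 250 nM gave 4.64 ± 0.58 (adjusted p = 1.39e-05) against untreated, the change over the pairs was 3.05 ± 0.25 (adjusted p = 5.04e-07), and romidepsin alone gave 3.15 ± 0.59 (adjusted p = 0.0659). The highest combination dose was 60.3 times the untreated level (95% counting interval 20.3 to 295) in PF382, from 3 counts, and 149 times the untreated level (95% counting interval 26.3 to 5930.0) in HH, from 1 count. Romidepsin effects on MAP2 were 2.71 ± 0.27, 3.80 ± 0.29, 3.36 ± 0.33 and 1.07 ± 0.58 in PF382, TLOm1, HH and H9. They differed by the test of equal effects (adjusted p = 0.0244), which no longer passed when any azacitidine step was left out (adjusted p = 0.0523 to 0.114).

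TUBB3, the neuronal beta-tubulin, went from a few counts to a clear signal in PF382 and was already detected in the other lines. In PF382 TUBB3 was at 0.16, 0.11, 0.20 and 0.28 CPM without romidepsin and 2.96, 4.31, 6.09 and 8.57 CPM with it. H9 had it at 7.57, 17.5, 19.1 and 13.4 CPM without romidepsin and 15.5, 33.1, 35.3 and 37.4 CPM with it, and HH at 14.9, 22.3, 20.8 and 17.1 CPM without romidepsin and 17.8, 34.3, 44.4 and 47.5 CPM with it. TLOm1 had it at 81.6, 134, 131 and 78.1 CPM without romidepsin and 104, 138, 116 and 94.4 CPM with it, where the arms overlapped. Romidepsin gave 4.84 ± 0.34 (adjusted p = 1.14e-08) in PF382, 1.08 ± 0.14 (adjusted p = 0.000149) in H9, 0.89 ± 0.14 (adjusted p = 0.000148) in HH and 0.12 ± 0.13 (adjusted p = 0.514) in TLOm1, and these differed (adjusted p = 6.64e-07). Over the pairs TUBB3 rose by 1.05 ± 0.28 (adjusted p = 0.00896), which was 0.67 without PF382 and not called without H9 (adjusted p = 0.0506) or without the highest step (0.0581).

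The neurofilament genes, whose products form the axonal filament network, moved in some lines only. NEFL, the light chain, was at 1.88, 3.61, 4.51 and 5.34 CPM without romidepsin and 3.22, 4.84, 7.56 and 8.6 CPM with it in PF382 and at 1.39, 1.97, 2.89 and 2.53 CPM without romidepsin and 2.78, 3.98, 4.19 and 6.15 CPM with it in H9. TLOm1 had NEFL at 0, 0.13, 0.35 and 1.55 CPM without romidepsin and 0, 0.24, 2.13 and 5.68 CPM with it, with 0 counts untreated, so that the combination at 500 nM was at least 44.4-fold higher than 3 counts. HH had 1 NEFL count in its 8 libraries. NEFL rose by 0.99 ± 0.17 (adjusted p = 0.000626) over the pairs, and its combination call (2.68 ± 0.65 (adjusted p = 0.0056)) was lost without H9 (adjusted p = 0.0512). NEFM, the medium chain, reached 2.71 CPM in TLOm1 and stayed under 0.6 CPM elsewhere, and NEFH, the heavy chain, was at 11.3 to 18.3 CPM in H9 and at most 1.84 CPM elsewhere. NEFH rose by 0.59 ± 0.15 (adjusted p = 0.00561) per azacitidine doubling and by 1.19 without H9.

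STMN3, a stathmin that destabilises microtubules, did not pass over the pairs. PF382 had STMN3 at 93.1, 78.2, 79.99 and 76 CPM without romidepsin and 99.4, 94.7, 103 and 85.1 CPM with it, and H9 at 44.3, 36.2, 34.6 and 31.7 CPM without romidepsin and 51.9, 40.7, 40.3 and 55.7 CPM with it. In TLOm1 it was at 11.3, 16.4, 17.4 and 9.01 CPM without romidepsin and 9.96, 11.7, 10.1 and 8.86 CPM with it, and in HH at 2.57, 2.55, 3.31 and 3.58 CPM without romidepsin and 2.84, 3.03, 5.71 and 7.8 CPM with it. Romidepsin raised it in HH (0.67 ± 0.18 (adjusted p = 0.00794)) and lowered it in TLOm1 (-0.38 ± 0.13 (adjusted p = 0.0309)), and the 4 effects differed (adjusted p = 0.00344). Without the middle step none of these held (adjusted p = 0.0678, 0.315 and 0.102), and the TLOm1 call was also lost without the lowest (0.147). DCX, a microtubule protein of migrating neurons, was at 0.13, 0.088, 0.26 and 0.13 CPM without romidepsin and 0.62, 0.89, 0.60 and 0.31 CPM with it in TLOm1 and at most 0.044 CPM elsewhere. Its change of 1.56 ± 0.50 (adjusted p = 0.0251) over the pairs was 0.39 without TLOm1 (adjusted p = 0.807), and its call was also lost without PF382 (0.0648), without the libraries that had no azacitidine (0.0752) and without the lowest step (0.156). INA, high in PF382 and H9, rose with romidepsin in H9 (0.43 ± 0.08 (adjusted p = 0.00626)), a call lost without the middle step (adjusted p = 0.132). GAP43, of growth cones, rose by 0.85 ± 0.23 (adjusted p = 0.00962) per azacitidine doubling, which without PF382 was 0.33 (adjusted p = 0.349).

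**Figure D3:**
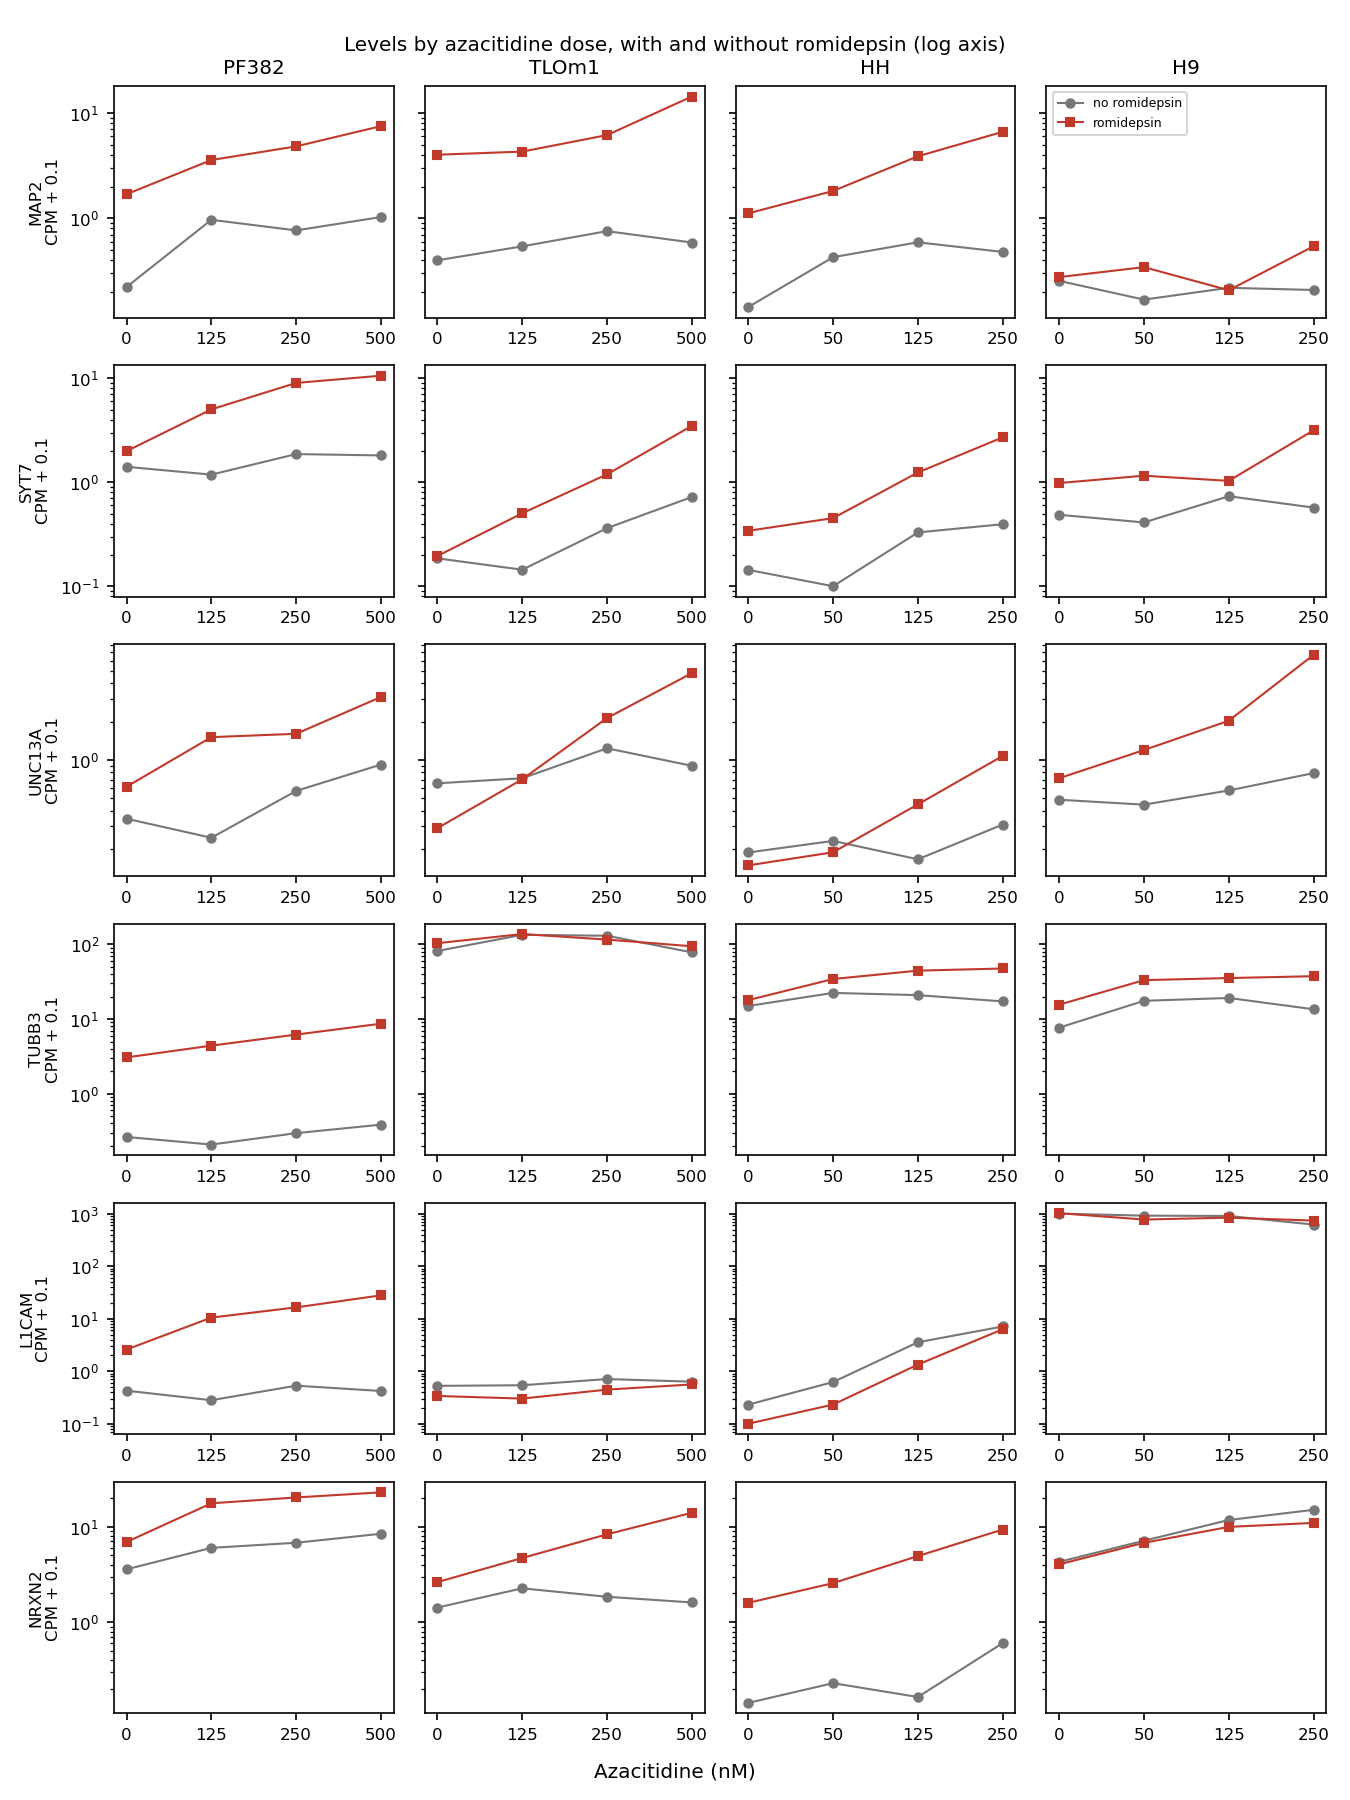
CPM + 0.1 (log axis, shared by the panels of a gene) of 6 genes by azacitidine dose in nM, with the doses at equal spacing, in each line, without romidepsin (grey circles) and with it (red squares); each point is 1 library. MAP2 lies above its grey line at each dose in PF382, TLOm1 and HH, L1CAM separates by romidepsin in PF382 and climbs with azacitidine in both arms of HH, and the H9 lines of NRXN2 run together.

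Of the 8 channel and receptor genes, 3 rose and 1 fell over the pairs, where 18.4% and 15.1% of all genes did. In the combination at 250 nM 1 rose (12.5%), a share near the 14.2% of all genes. KCNH2, the hERG potassium channel, was higher with romidepsin in 16 of 16 pairs. In PF382 KCNH2 was at 31.6, 21.4, 19.6 and 14.2 CPM without romidepsin and 44.6, 40.2, 38.9 and 28.8 CPM with it, and in H9 at 16.5, 16.7, 16.4 and 13.4 CPM without romidepsin and 21.1, 19.9, 19.4 and 20.9 CPM with it. TLOm1 had it at 13.1, 13.8, 15.8 and 18.2 CPM without romidepsin and 15.1, 19.9, 21.8 and 34.9 CPM with it, and HH at 0.044, 0.20, 0.33 and 0.29 CPM without romidepsin and 0.19, 0.31, 1.69 and 2.83 CPM with it. The highest azacitidine dose had the lowest value of each arm in PF382 and the highest of each arm in TLOm1. Romidepsin gave 0.72 ± 0.14 (adjusted p = 0.000803) over the pairs, and the effect in HH (2.54 ± 0.34) stood apart from 0.85 ± 0.11, 0.54 ± 0.12 and 0.37 ± 0.12 in PF382, TLOm1 and H9 (test of equal effects, adjusted p = 0.000668).

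SCN2A, a neuronal sodium channel, was highest in TLOm1, at 32, 21.9, 21 and 17.3 CPM without romidepsin and 43, 27.9, 26.9 and 26.2 CPM with it. In HH SCN2A was at 0.48, 0.72, 0.59 and 0.80 CPM without romidepsin and 1.4, 2.37, 2.68 and 2.14 CPM with it, with no overlap, and in PF382 at 0.57, 0.58, 1.29 and 2.78 CPM without romidepsin and 1.16, 0.76, 1.08 and 2.99 CPM with it. H9 had at most 0.11 CPM. Romidepsin gave 1.73 ± 0.21 (adjusted p = 8.34e-06) in HH and 0.43 ± 0.11 (adjusted p = 0.00785) in TLOm1, and the 4 effects differed (adjusted p = 0.000681). The change over the pairs, 0.66 ± 0.19 (adjusted p = 0.0119), was 0.33 without HH (adjusted p = 0.0881), and its call was also lost without TLOm1 (0.051) and without the libraries that had no azacitidine (0.0594). SCN3B, a sodium channel subunit, stayed between 0 and 0.65 CPM, and its change over the pairs (0.96 ± 0.33 (adjusted p = 0.0325)) was lost without PF382, TLOm1 or HH (adjusted p = 0.0518, 0.0608 and 0.234) and without the lowest, middle or highest step (0.0761, 0.168 and 0.152).

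GRIN1, the obligate subunit of NMDA-type glutamate receptors, was the neuronal gene that fell over the pairs. TLOm1 had GRIN1 at 16.9, 25.2, 25.5 and 19 CPM without romidepsin and 8.48, 17.1, 11.8 and 10.1 CPM with it, where the arms touched only near 17 CPM, and HH at 27.6, 15.4, 12.9 and 14.2 CPM without romidepsin and 19.3, 16, 11 and 7.34 CPM with it. In PF382 it started from 0 counts, at 0, 0.036, 0.039 and 0.36 CPM without romidepsin and 0, 0.076, 0.19 and 0.90 CPM with it, and H9 ranged over 0.32 to 1.09 CPM. Romidepsin gave -0.89 ± 0.14 (adjusted p = 0.000118) in TLOm1 and 1.40 ± 0.52 (adjusted p = 0.0478) in PF382, and the 4 effects differed (adjusted p = 0.0104; 0.138 without the middle step). GRIN1 was also called lower with romidepsin in HH, a call lost in 3 fits that left out an azacitidine step. The change over the pairs (-0.47 ± 0.16 (adjusted p = 0.0294)) was -0.19 without TLOm1 (adjusted p = 0.501). Its call was lost in 5 of 8 fits, the others being those without HH (0.0892), without the libraries that had no azacitidine (0.11) and without the lowest or middle step (0.0891 and 0.0676). The PF382 call was lost without the libraries that had no azacitidine, the middle step or the highest one (adjusted p = 0.0613, 0.164 and 0.327).

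GRIA2, an AMPA receptor subunit whose promoter window carries the element shown above, followed azacitidine. TLOm1 had GRIA2 at 0.47, 1.01, 1.83 and 2.8 CPM without romidepsin and 0.86, 1.01, 1.93 and 2.05 CPM with it, and the other lines stayed at or under 0.50 CPM. GRIA2 rose by 0.76 ± 0.17 (adjusted p = 0.00249) per azacitidine doubling, and romidepsin gave -0.00 ± 0.23 (adjusted p = 0.99) over the pairs. Its combination call (2.07 ± 0.68 (adjusted p = 0.0297)) was lost without TLOm1, HH or H9 (adjusted p = 0.162, 0.0794 and 0.0682). The calcium channel genes differed by line: romidepsin raised CACNA1A in PF382 (2.05 ± 0.24 (adjusted p = 1.54e-06)) and H9 (0.89 ± 0.13 (adjusted p = 0.000248)) but not in HH (-0.27 ± 0.11 (adjusted p = 0.0868)), where it was at 26.8 to 69.3 CPM. The 4 effects on CACNA1A differed (adjusted p = 4.2e-06). CACNA1B rose by 1.82 ± 0.20 (adjusted p = 5.1e-06) per azacitidine doubling, with highest values of 3.99 CPM in TLOm1 and 0.83 CPM in PF382 and at most 0.13 CPM in HH and H9. KCNC1, a fast potassium channel, rose with romidepsin in PF382 only by the test (0.93 ± 0.32 (adjusted p = 0.0328)), a call lost without the lowest, middle or highest step (adjusted p = 0.0912, 0.154 and 0.184).

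NRXN2, a presynaptic neurexin, was higher in the combination at 250 nM than untreated in 4 of 4 lines, by 3.01 ± 0.69 (adjusted p = 0.00361). In HH NRXN2 was at 0.044, 0.13, 0.065 and 0.51 CPM without romidepsin and 1.49, 2.46, 4.81 and 9.2 CPM with it, and in TLOm1 at 1.32, 2.16, 1.74 and 1.51 CPM without romidepsin and 2.52, 4.59, 8.18 and 13.8 CPM with it. PF382 had 3.47, 5.88, 6.67 and 8.3 CPM without romidepsin and 6.79, 17.4, 20.02 and 22.6 CPM with it. The arms did not overlap in HH and TLOm1, and in PF382 romidepsin alone lay within the range of azacitidine alone. In H9 it was at 4.17, 7.0, 11.6 and 14.8 CPM without romidepsin and 3.93, 6.65, 9.81 and 10.8 CPM with it, so that it climbed with azacitidine and was lower with romidepsin at each dose. Romidepsin effects were 1.41 ± 0.21 (adjusted p = 3.3e-05), 1.94 ± 0.26 (adjusted p = 1.64e-05), 4.66 ± 0.41 (adjusted p = 1.11e-07) and -0.23 ± 0.21 (adjusted p = 0.635) in PF382, TLOm1, HH and H9, and they differed (adjusted p = 1.8e-06). The change over the pairs (1.44 ± 0.37 (adjusted p = 0.00659)) was lost without PF382 or TLOm1 (adjusted p = 0.0545 and 0.0607).

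CELSR3, an adhesion G-protein-coupled receptor of axon guidance, was detected in each line. PF382 had CELSR3 at 21.5, 22.6, 33.3 and 43.1 CPM without romidepsin and 22.9, 25.5, 31.2 and 30.2 CPM with it, and TLOm1 at 174, 129.8, 117 and 109.6 CPM without romidepsin and 156, 153, 127 and 115 CPM with it. HH had 163, 119, 106 and 88.4 CPM without romidepsin and 138, 94.5, 85.4 and 77.5 CPM with it, and H9 154, 132, 127 and 90.2 CPM without romidepsin and 168, 145, 142 and 129 CPM with it. Without romidepsin the highest azacitidine dose had the lowest value in TLOm1, HH and H9 and the highest in PF382. CELSR3 was higher with romidepsin in 2, 3, 0 and 4 of the 4 pairs in PF382, TLOm1, HH and H9. It was called lower with romidepsin in HH, a call lost in 3 fits that left out an azacitidine step. The 4 romidepsin effects on CELSR3 differed (adjusted p = 0.0147), which was lost in 2 such fits. Azacitidine gave -0.66 ± 0.16 (adjusted p = 0.0146) in HH, lost without the middle step (adjusted p = 0.196), and the 4 azacitidine effects differed (adjusted p = 0.018; 0.268 without that step). L1CAM, chosen after its values were seen, responded to different drugs in different lines. In PF382 L1CAM was at 0.33, 0.18, 0.43 and 0.32 CPM without romidepsin and 2.49, 10.4, 16.4 and 27.9 CPM with it. In HH it was at 0.13, 0.52, 3.47 and 7.03 CPM without romidepsin and 0, 0.13, 1.24 and 6.23 CPM with it, so there it climbed with azacitidine in both arms. H9 had 1009, 925, 912 and 624 CPM without romidepsin and 1029, 779, 846 and 744 CPM with it, and TLOm1 ranged over 0.20 to 0.61 CPM. Romidepsin gave 5.48 ± 0.29 (adjusted p = 1.01e-09) in PF382 and -0.67 ± 0.29 (adjusted p = 0.0982) in HH, and the 4 effects differed (adjusted p = 2.65e-08). Azacitidine gave 5.46 ± 1.43 (adjusted p = 0.0235) in HH, lost without the middle or the highest step (adjusted p = 0.154 and 0.0514), and azacitidine at 250 nM was 53.7 times the untreated level (95% counting interval 18.1 to 263), from 3 counts.

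The neuronal RNA-binding genes were close to 0 in most libraries. ELAVL3, which regulates neuronal splicing, was at 0.13, 0.18, 0.52 and 1.51 CPM without romidepsin and 0.14, 0.04, 0.15 and 2.51 CPM with it in TLOm1 and at most 0.83 CPM in PF382, in the combination at 500 nM. HH and H9 stayed at or under 0.14 CPM. ELAVL3 rose by 1.78 ± 0.32 (adjusted p = 0.000541) per azacitidine doubling, and without TLOm1 the slope was 1.21 (adjusted p = 0.0623). ELAVL4 was detected in PF382, at 0.33 to 0.94 CPM, and held 1 count in the other lines together. Of the genes with too few counts to test, RAB3C reached 0.54 CPM in PF382 and STMN2 0.58 CPM in HH, and SCG3 and CPLX2 held at most 4 and 3 counts in a library.

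Seen by line, romidepsin raised 19 of the 42 in PF382 and lowered 2 (19.1% and 11.6% of all genes), and raised 14 and lowered 3 in TLOm1 (17.1% and 15.5%). Within a line the azacitidine doses stand in for replicates, because each condition had 1 library. In HH it raised 15 and lowered 2 (14% and 13.7%), and in H9 it raised 9 and lowered 0 (3.64% and 0.831%). The H9 calls were CHGB, UNC13A, SYT5, SYT7, SNAP25, NEFL, INA, TUBB3 and CACNA1A, and 4 to 10 were called there when an azacitidine step was left out (1.21% to 4.67% of all genes), the fewest without the middle one. Equal effects in the 4 lines were rejected for 20 of the 42, where 33% of all genes were rejected. That count was 7 without the middle azacitidine step, 10 without the lowest and 13 without the highest, where 11%, 18.8% and 29.2% of all genes were rejected. Romidepsin was at 1.25 nM in PF382, 1 nM in TLOm1 and H9, and both in HH, and azacitidine doses differed as well. Between lines with unlike doses, line and dose cannot be told apart.

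**Figure D4:**
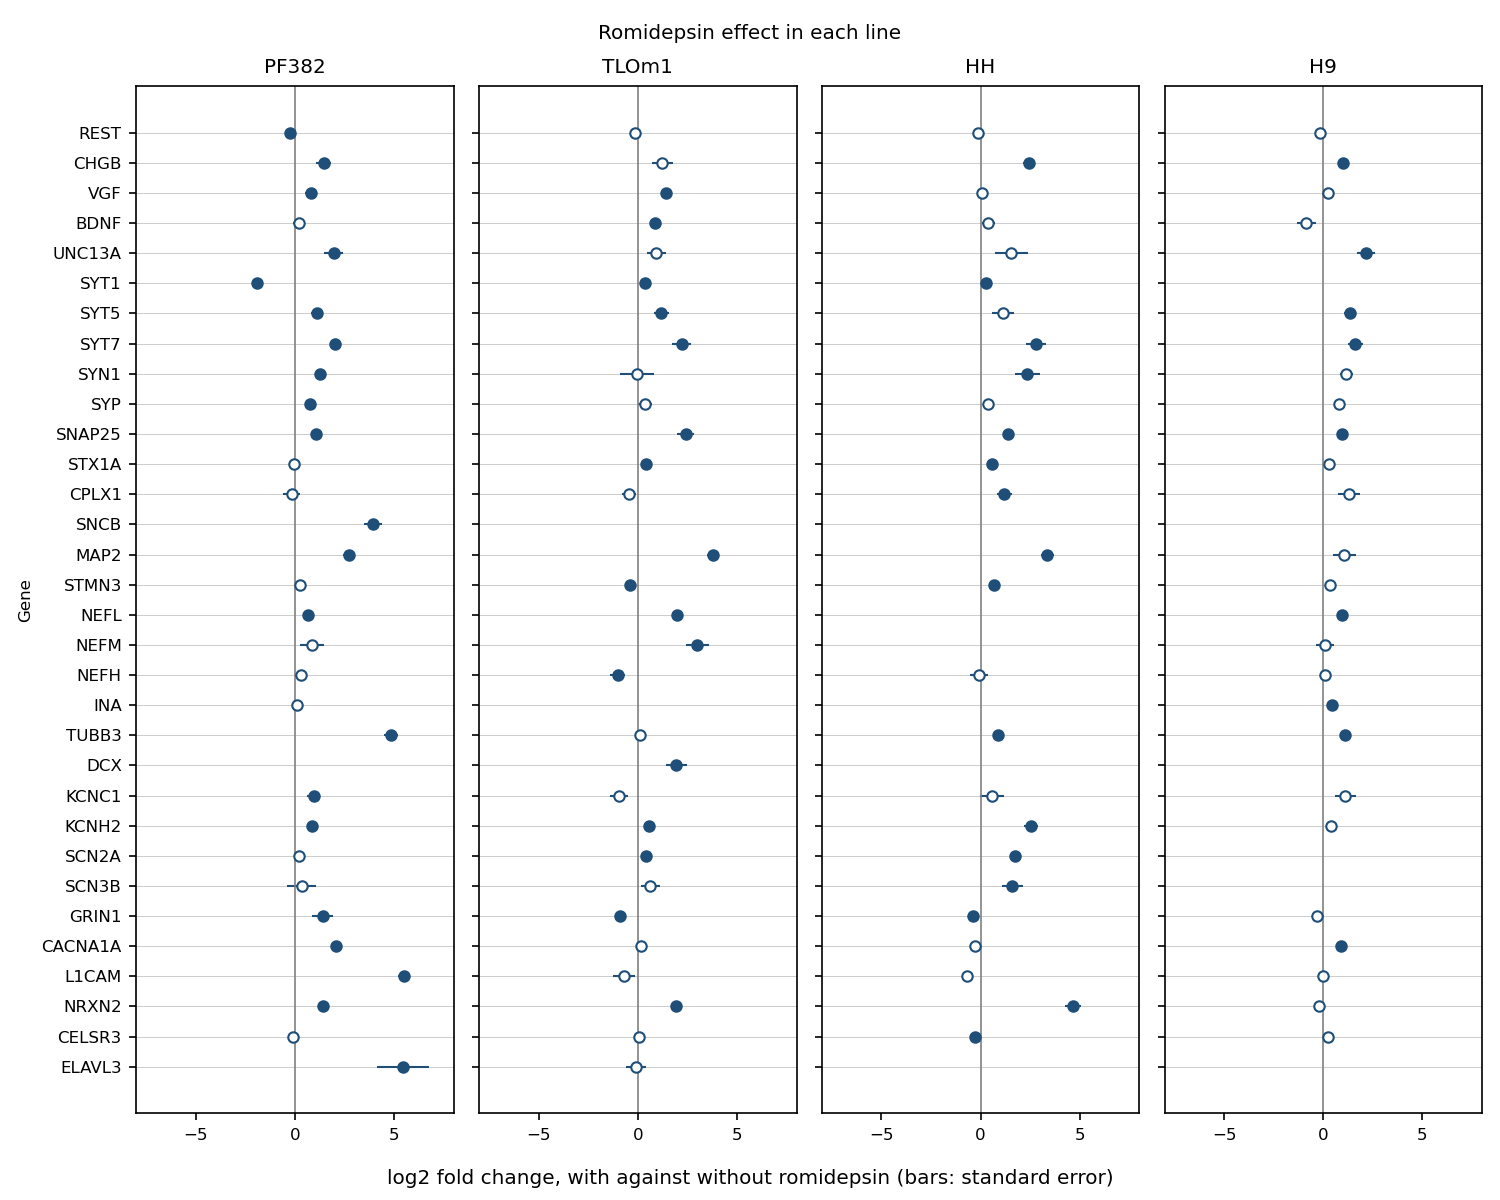
Log2 fold change with against without romidepsin in each line (points; bars are standard errors from edgeR, over 4 libraries with and 4 without) for the 32 members called in at least 1 line; filled points were called in that line, and a gene with fewer than 10 counts in a line is not drawn. Most points lie right of 0, L1CAM and TUBB3 stand out in PF382 and NRXN2 in HH, and SYT1 in PF382 lies left of 0.

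The change along the azacitidine dose was fitted with both arms together. In the 24 libraries that received azacitidine, 18 of the 42 rose per doubling of the dose and none fell, where 17.1% of all genes rose and 11.4% fell. By role, these were 7 of 12 release genes, 5 of 9 cytoskeleton genes, 2 of 8 channel genes, 1 of 6 granule genes, NRXN2, ELAVL3 and RCOR1. Estimates ran from 0.11 ± 0.04 for STX1A to 1.82 ± 0.20 for CACNA1B, with MAP2 at 0.54 ± 0.10, SYT7 at 0.79 ± 0.13 and UNC13A at 0.88 ± 0.13. In the 12 libraries without romidepsin 4 were called, a share near the 9.49% of all genes called there in either direction. Each of the 4 was higher, where 5.89% of all genes were. In the 12 with romidepsin 9 were called, each higher, where 9.6% of all genes were higher and 14.5% were called in either direction. CHGB, CPLX1, ELAVL3, GAP43, NEFM, STX1A, SYN1 and SYT4 were not called without at least 1 of the lines.

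As a yes-or-no effect within a line, azacitidine raised 2 and lowered 0 in PF382 (5.94% and 2.39% of all genes) and raised 6 and lowered 1 in TLOm1 (11% and 7.68%). It raised 4 and lowered 3 in HH (4.07% and 1.8%) and raised 1 and lowered 2 in H9 (2.81% and 3.06%). Equal effects were rejected for SYT1, SNAP25, CACNA1A, CELSR3, L1CAM, KCNH2, GRIN1 and CPLX1, 8 of the 42 (10.7% of all genes), and for none of the 42 without the middle step (0.371% of all genes). These effects cover 125, 250 and 500 nM in PF382 and TLOm1 but 50, 125 and 250 nM in HH and H9. A difference between lines with unlike doses cannot be told apart from one of dose.

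Other neuronal genes, listed from general knowledge, gave like shares: of 92 tested, romidepsin raised 45 and lowered 4 over the pairs, and the combination at 250 nM raised 29 and lowered 3. Of all genes, 18.4% rose and 15.1% fell over the pairs, and 14.2% rose and 8.76% fell in the combination. Of 22 further genes tested that were listed as cofactors or regulators of REST, 4 rose (18.2%, near the share of all genes) and 5 fell over the pairs. Not all of the 22 are corepressors. SRRM3, which is not one, had the largest rise (2.86 ± 0.34, adjusted p = 1.21e-05). Genes that mark other cell types moved as well. Of 9 tested epithelial markers 6 rose over the pairs and 3 in the combination, and their summed level ranged over 17.1 to 161 CPM in PF382, 43.6 to 249.2 CPM in TLOm1, 4.42 to 7.33 CPM in HH and 161 to 267 CPM in H9. The 3 in the combination were KRT8 (4.26 ± 0.47, adjusted p = 4.21e-06), KRT18 (4.24 ± 0.57, adjusted p = 3.11e-05) and CLDN7 (3.66 ± 0.65, adjusted p = 0.000452). KRT19, a simple epithelial keratin, was at 0 in 26 of the 32 libraries. Of 6 tested glial markers 2 rose over the pairs and 2 in the combination. Those in the combination were GFAP (3.70 ± 0.63, adjusted p = 0.000296) and S100B (3.53 ± 1.06, adjusted p = 0.0256). S100B was itself at 0 in 21 of the 32 libraries and GFAP in 4. OLIG1, OLIG2 and MOG were at 0 in 20, 19 and 26 of the libraries. Summed glial levels were 10.4 to 39.5 CPM in PF382, 1.32 to 4.81 CPM in TLOm1 and 24.9 to 44.4 CPM in HH. The H9 sum of 178 to 195 CPM was mostly MBP, which alone had at least 175 CPM there. Of the 13 T-cell markers 3 rose and 3 fell over the pairs, where 18.4% and 15.1% of all genes did. The part of other cell types in the changes of the neuronal genes was not tested.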

How the data were processed

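Per the labels' protocols, RNA from a Qiagen RNeasy kit was sequenced as stranded Illumina libraries; they name both poly(A) RNA and depletion of ribosomal RNA. STAR, DESeq2, limma and the build GRCh37.p2 are named in the submitters' processing notes, without roles. The read counter, annotation and strand setting were not given in the sources used here, so overlapping genes and near-identical copies may share counts. The authors deposited 1 table of raw counts by gene symbol for each library, used here as deposited. Titles of combinations give doses without a unit, read as nM, and 1 title misspells PF382.

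The 46 genes and all lists were chosen with earlier results of these data known. Fits used edgeR 4.0.16 in R 4.3.3 (TMM, robust quasi-likelihood F test, Benjamini-Hochberg adjustment, threshold 0.05) on the 17801 of 25559 genes kept by filterByExpr (minimum count 10, minimum total 15). The group model had 10 groups of treatment and dose plus line (19 residual degrees of freedom). Romidepsin over 16 pairs matched on line and azacitidine dose had 15, the slope per doubling in 24 azacitidine libraries 15, and the models of romidepsin and azacitidine within each line 12 and 20. Libraries of a line enter as independent, and no label says they were separate cultures, so p-values measure the spread between libraries, which may be technical. Libraries pair by line, the source of the cells: with group means subtracted, 60 of 60 same-line pairs of libraries correlated across genes, at 0.86 to 0.973. Counting intervals (95%, exact) and floors of 3 counts cover counting error only. Genes named with values by library are REST, RCOR1, each gene called in the romidepsin, azacitidine, combination or matched-pair comparison (at most 5 per role group, by adjusted p) and the gene of each role group highest in untreated cells. Promoter letters come from RefSeq (GRCh38.p14), a build other than the submitters', so no coordinate was joined to the counts. Alternatives were RLE scaling, DESeq2 1.42.0, limma-voom (limma 3.58.1), no filter, a stricter filter (1 CPM in 8 libraries), only the compared libraries, no line term, azacitidine with or without romidepsin only, and leaving out a line or dose step. The scripts were tested on simulated data.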

Additional observations from a re-analysis of the deposited data

Results flagged for a closer look

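One line stood apart from the other 3 in the untreated level of 8 of the 42 tested genes, its gap to the nearest line being, as a share of the range of the 4, over Dixon's 95% critical value. Chance gives such a gap in about 1 group in 20, and for genes near 0 it can rest on a few counts. H9 stood apart with L1CAM at 9.98 on the log2 CPM scale, PF382 with CELSR3 at 4.43 and ELAVL4 at -1.29, and TLOm1 with STX1A at 4.15. HH stood apart with KCNH2 at -2.98 and SYT4 at -1.96, and TLOm1 with DCX and ELAVL3 both at -2.24. Among 23 changes looked at, 3 had a line apart in the combination at 250 nM against untreated: CHGB in TLOm1 with a log2 change of 0.88, SYT7 in HH with 4.40 and SNCB in PF382 with 4.75, the last with 0 counts in the other lines.

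Romidepsin effects that differed between the 4 lines, by edgeR's quasi-likelihood test of equal effects, had adjusted p-values of 2.65e-08 for L1CAM, 6.64e-07 for TUBB3, 1.8e-06 for NRXN2, 4.2e-06 for CACNA1A, 2.75e-05 for SYT1, 0.000668 for KCNH2 and 0.000681 for SCN2A. Larger adjusted p-values were 0.00344 for STMN3, 0.0104 for GRIN1, 0.0138 for VGF, 0.0147 for CELSR3, 0.0188 for NEFL, 0.0225 for STX1A and 0.0244 for MAP2. Closest to the threshold were 0.0264 for INA, 0.0335 for NEFM, 0.0383 for ELAVL3, 0.0391 for CPLX1, 0.0448 for CHGB and 0.0491 for KCNC1. Azacitidine effects that differed between the lines had adjusted p-values of 0.00263 for SYT1, 0.00487 for SNAP25, 0.0133 for CACNA1A, 0.018 for CELSR3, 0.0242 for L1CAM, 0.0261 for KCNH2, 0.0404 for GRIN1 and 0.0482 for CPLX1. Without the middle azacitidine step 13 of these romidepsin tests and 8 of the azacitidine tests no longer passed. Drug doses were not the same in all lines, and between lines with unlike doses, line and dose cannot be told apart.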

How the results depend on the processing

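Most calls of single genes kept their direction and side of the threshold: 1316 values under an alternative did, 335 kept the direction without passing, and 1 turned. That 1 is the romidepsin effect on INA in HH, which rests on 5 counts in the combination at 250 nM and was -1.06e-11 without the highest azacitidine step and 4.15 without the middle one.

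Counts of the 42 genes called were more dependent on the setting. Left without the line term (no replicate block, so the libraries are not paired by line), the combination at 250 nM called 0 in place of 15 against untreated cells and 0 in place of 8 against azacitidine, and with the compared libraries alone also 0 and 0. Pairing by line is the origin of the cells and is part of the reported fits. Romidepsin alone called 1 in DESeq2, in limma-voom and in the compared libraries, in place of 0, and azacitidine at 250 nM called 1 in DESeq2 and in limma-voom, in place of 0. The slope called 10 under the stricter filter, 4 in libraries without romidepsin and 9 in those with it, in place of 18; fewer genes or libraries enter these fits. Azacitidine in PF382 called 7 in DESeq2 in place of 2, and azacitidine in TLOm1 called 3 under the stricter filter in place of 7. Equal azacitidine effects were rejected for 5 genes in limma-voom and for 5 with no filter, in place of 8; the cause was not tested.

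Leaving out a line in turn gave 0 to 1 calls for romidepsin alone, 0 to 2 for azacitidine at 250 nM, 6 to 14 for the combination against untreated, 2 to 6 against azacitidine and 0 to 0 for the departure from additivity. Leaving out a line or dose step gave 16 to 22 for the matched pairs, and leaving out a line 13 to 20 for the slope. Leaving out a dose step gave 14 to 19 for romidepsin in PF382, 11 to 18 in TLOm1, 9 to 15 in HH and 4 to 10 in H9, and 7 to 20 for unequal romidepsin effects. For azacitidine it gave 0 to 13 in PF382, 1 to 18 in TLOm1, 0 to 13 in HH, 0 to 5 in H9 and 0 to 10 for unequal effects. Depth limits genes near 3 counts in a library, 0.0982 to 0.196 CPM, where a difference was not detectable.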
